A study of Mus musculus with 16 samples.

Results

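Lifr, Il6st, Stat3 and Socs3, the receptor chains, the transcription factor and the feedback inhibitor of leukaemia inhibitory factor (LIF) signalling, were followed in newly made RNA of mouse embryonic stem cells with and without Mettl14. The genes were taken by Ensembl identifier: ENSMUSG00000054263 for Lifr, ENSMUSG00000021756 for Il6st, ENSMUSG00000004040 for Stat3 and ENSMUSG00000053113 for Socs3. All 4 were found among the 54446 mouse identifiers, and all 4 passed the filter on low counts, which left 27488 identifiers. The METTL14 protein works with METTL3 to place methyl groups on adenosines of messenger RNA, and the series was designed to compare transcription rates with and without it.

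CKO (Mettl14 conditional knockout) and Control stem cells, both of the C57BL/6 strain, were grown with 1000 U/ml LIF, 3 µM CHIR99021 (an inhibitor of the kinase GSK3), 1 µM PD0325901 (an inhibitor of the kinase MEK) and 15% serum. LIF was thus supplied to both genotypes throughout. At 48 h after seeding, 0.5 mM 5-ethynyl uridine (EU), a uridine analogue that cells build into RNA as they transcribe it, was given for 10, 20, 30 or 60 min, and RNA that carried it was captured by click chemistry. There were 2 libraries for each of the 8 groups. How the deletion was brought about, and whether Control cells carried the unrecombined allele or the same inducing treatment, is not stated in the labels. Separate cultures for the paired libraries are not stated either, so each p-value covers the spread between these libraries alone, and that spread may be technical.

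LIF binds LIFR, which pairs with the shared signal-transducing chain gp130, the product of Il6st. Janus kinases bound to the receptor then phosphorylate STAT3, which enters the nucleus and activates genes that keep mouse embryonic stem cells in self-renewal. Socs3 is one of the genes that STAT3 activates, and its protein binds gp130 and the kinases and shuts the signal down. The pathway is thus a receptor pair, a transcription factor and a negative feedback loop.

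On the GRCm38.p6 assembly, the RefSeq table placed Lifr on chromosome 15 (7090610 to 7197489), Il6st on chromosome 13 (112464070 to 112506860), and Stat3 (100886806 to 100939594) and Socs3 (117966079 to 117970336) on chromosome 11. All 4 are protein-coding genes. RefSeq gave 5 promoter windows for them, each from 250 bases before a transcript start to 50 after it. The STAT binding motif TTCNNNGAA, which reads the same on both strands, was searched in them because STAT3 is the factor at the end of the pathway. It was found in 1 of the 5 windows, that of Socs3, and in 8.3% of all 32851 RefSeq windows. The matching window is shown because Socs3 is the feedback gene of the pathway. It lies on the minus strand at chr11:117969317-117969616 at a transcript start inside the span of the gene. The capitals mark the match, whose first base lies 154 bases before that start.

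Socs3 promoter: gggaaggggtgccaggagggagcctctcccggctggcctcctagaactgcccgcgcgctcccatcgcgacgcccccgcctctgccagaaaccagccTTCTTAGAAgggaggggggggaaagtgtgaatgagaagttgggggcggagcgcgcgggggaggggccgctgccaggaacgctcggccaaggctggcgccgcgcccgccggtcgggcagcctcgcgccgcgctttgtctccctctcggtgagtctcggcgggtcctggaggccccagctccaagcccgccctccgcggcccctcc

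The window of Socs3 was 73.3% G and C, that of Il6st 68.3%, that of Stat3 60.7% and the windows of Lifr 81.3% and 53.3%, against a median of 52.7% over all RefSeq windows. A match is a description of the letters, and nothing in these data measured binding.

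CKO libraries held 11902184 to 26557342 mouse counts at 10, 20 and 60 min, but 5188643 and 5109162 at 30 min, against 12883425 to 28502750 in Control libraries. Both CKO 30 min libraries also stood apart in content: they had counts on 30583 and 31826 identifiers, while the other CKO libraries had no more than 26407 and Control no more than 26857. They also differed from each other, with a correlation of log2 CPM of 0.82, against 0.964 to 0.995 within the other groups. The overall effects, the tests of genotype by EU time and the spike-in scaled levels are therefore also given without the 30 min libraries of either genotype. The values that follow are CPM, mouse counts scaled to a common library total, after TMM scaling, which sets each library against the bulk of its genes. They are called shares of the captured RNA here, but they are relative to that bulk, and they are not amounts. TMM factors were 1.22 and 1.24 in the CKO 30 min libraries and 0.912 to 1.01 in the others. The larger factors lower the CPM values there. By library total, Stat3 had 86.7 and 105 CPM in the CKO 30 min libraries, against 72.0 and 86.1 after TMM scaling. In these bulk samples, fewer cells that make a transcript and less of it per cell cannot be told apart. The counts behind each value were 217 to 4557 per library over the 4 genes.

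Both receptor genes had a smaller share of newly made RNA in CKO cells, Stat3 did not differ detectably and Socs3 did not pass the test. Over all EU times Lifr was 1.43-fold and Il6st 1.27-fold lower in CKO. The Stat3 estimate was 0.998 of Control. Of the 4 genes, 2 were called lower and 0 higher at an adjusted p of 0.05. Over all tested identifiers, 4.7% were called lower and 6.77% higher. Among the 9472 identifiers with a mean of at least 10 CPM, to which all 4 genes belong, 12.9% were called lower and 6.03% higher, and 10.9% and 11.9% with the 30 min libraries left out, when 6.04% of all tested identifiers were called lower and 6.55% higher. The median log2 fold change of the 4 genes was −0.34, against 0.19 over all tested identifiers, and −0.20 against −0.015 with the 30 min libraries left out.

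**Figure D1:**
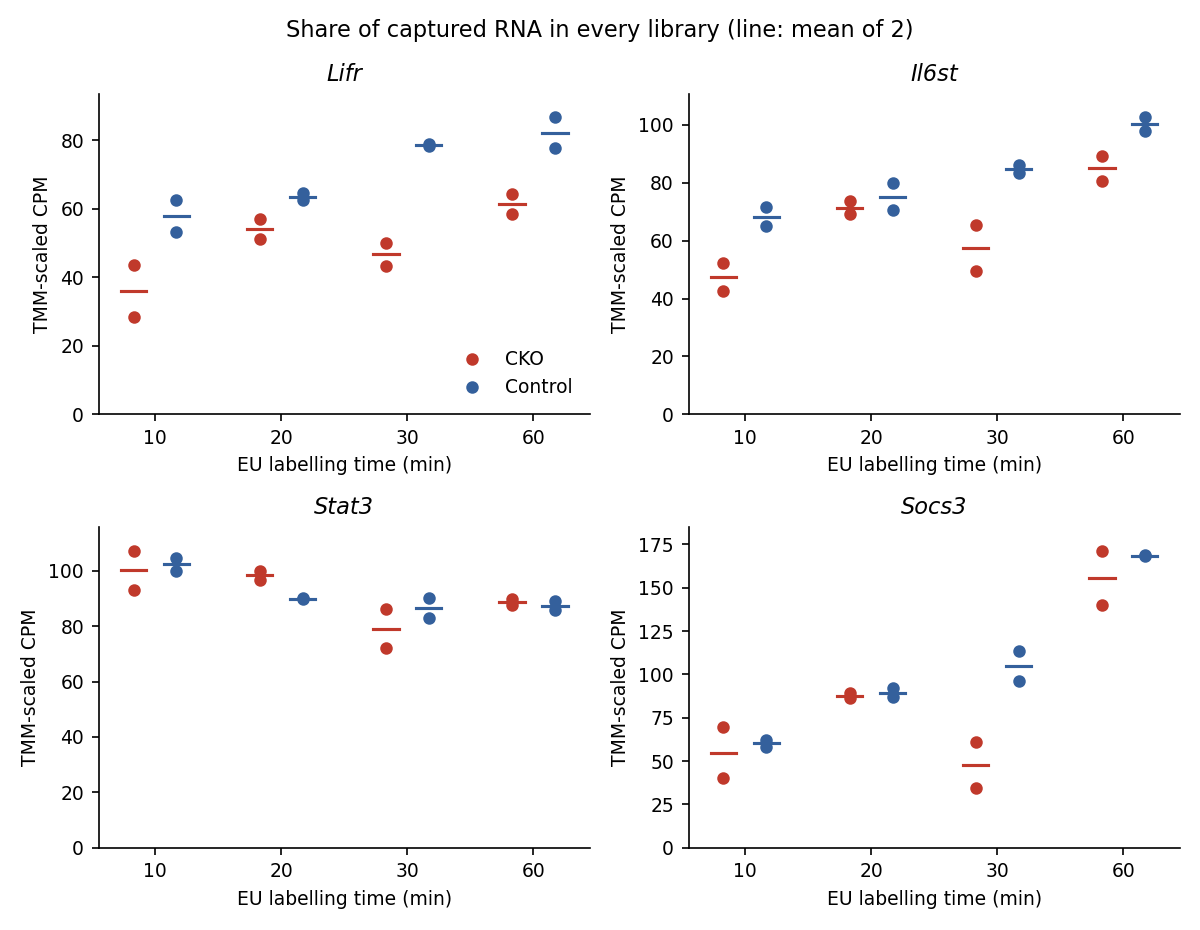
Share of captured RNA, as TMM-scaled CPM, of each gene in all 16 libraries by EU labelling time in min. Points are libraries, with CKO left of Control at each time, and lines are means of 2. Lifr points of CKO lie below those of Control at each of the 4 times, whereas Stat3 points mostly overlap and Socs3 climbs with labelling time in both genotypes except in the CKO 30 min libraries.

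Lifr encodes the chain that binds LIF. Its share in the CKO libraries was 28.4 and 43.5 CPM at 10 min, 51.1 and 57.0 at 20 min, 43.2 and 50.1 at 30 min, and 58.5 and 64.3 at 60 min. In Control it was 62.5 and 53.1 CPM at 10 min, 64.6 and 62.5 at 20 min, 78.9 and 78.3 at 30 min, and 86.7 and 77.7 at 60 min. The genotypes did not overlap at any of the 4 times, with CKO below Control at each, a pattern shown by 2.91% of tested identifiers. That share is over all 27488 tested identifiers, and the share among those with a mean of at least 10 CPM was not recorded. Shares without overlap in CPM given below for the other genes are likewise over all tested identifiers. The smallest gap was at 20 min, where the higher CKO library reached 57.0 CPM and the lower Control library 62.5.

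Over all EU times Lifr fell by 0.52 on the log2 scale in CKO (SE 0.11, edgeR, Benjamini-Hochberg adjusted p = 0.00451). Averaged over all libraries it had 49.5 ± 11.2 CPM in CKO and 70.5 ± 11.4 CPM in Control (SD, n = 8 each, a spread that includes the EU times). Without the 30 min libraries the log2 fold change was −0.46 (SE 0.10, edgeR adjusted p = 0.00665). In the 16 fits that each omitted a single library it lay between −0.56 and −0.46, past the threshold in all 16. With libraries scaled to spike-in RNA it was −0.10 (edgeR adjusted p = 0.807), an average over times at which the spike-in scaled differences ran in opposite directions.

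At single times, Lifr was lower in CKO by a log2 fold change of −0.68 at 10 min (SE 0.16, edgeR adjusted p = 0.00496) and of −0.75 at 30 min (SE 0.16, edgeR adjusted p = 0.000763). The background at these times was 5.36% and 19.1% of identifiers called lower, and the median log2 fold change of all identifiers was 0.61 at 30 min. Scaled to spike-in RNA, the 10 min direction turned. The log2 fold change became 0.66 for Lifr (edgeR adjusted p = 0.0352) and 0.81 for Il6st (edgeR adjusted p = 0.013). Stat3 (1.28, edgeR adjusted p = 1.96e-05) and Socs3 (1.22, edgeR adjusted p = 0.00411) were also called higher under that scaling. At 10 min it called 43.1% of all identifiers higher. At 30 min Lifr was also lower under that scaling, with a log2 fold change of −0.85 (edgeR adjusted p = 0.0111), when 15.0% of identifiers were called lower, and at 60 min it was −0.37 (edgeR adjusted p = 1). At 20 min the log2 fold change was −0.23 (SE 0.16, edgeR adjusted p = 0.903) and at 60 min −0.42 (SE 0.15, edgeR adjusted p = 0.213), neither past the threshold, where 0.255% and 0.84% of identifiers were called lower. The difference did not change detectably with EU time (edgeR F-test of genotype by EU time, adjusted p = 0.234), in a test that called 22.7% of identifiers, although without the second CKO 10 min library its edgeR adjusted p was 0.0213. It was 0.396 without the 30 min libraries, when 5.58% of identifiers were called, and 0.0050 with spike-in scaling, when 38.4% were called. The 10 min call was lost without the first CKO 10 min library (log2 fold change −0.41, edgeR adjusted p = 0.11) or the first Control 10 min library (−0.56, edgeR adjusted p = 0.0749), and in a fit of the 4 libraries at that time alone (edgeR adjusted p = 0.0709). The 30 min value moved with the scaling, to −0.48 with the size factors of DESeq2 (edgeR adjusted p = 0.021), −0.45 with library totals (edgeR adjusted p = 0.0247) and −0.48 with DESeq2 (adjusted p = 0.0157). The call was lost under a filter that asked for 10 counts in every library (−0.40, edgeR adjusted p = 0.0618). The 60 min difference was called by DESeq2 (−0.46, adjusted p = 0.0304), which called 1057 identifiers lower at that time. It was also called by edgeR on the 4 libraries at that time alone (−0.42, adjusted p = 0.0257), which called 789 lower. The main fit called 231 lower at 60 min. Without the first or the second CKO 30 min library, the edgeR log2 fold change at 60 min was −0.46 in each case.

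Il6st encodes gp130, the chain that LIFR shares with the receptors of interleukin 6 and related cytokines. It had 42.5 and 52.2 CPM in CKO at 10 min, 73.7 and 69.1 at 20 min, 65.2 and 49.6 at 30 min, and 80.8 and 89.2 at 60 min. Control libraries had 71.5 and 64.9 CPM at 10 min, 70.4 and 79.9 at 20 min, 86.0 and 83.2 at 30 min, and 103 and 97.7 at 60 min. CKO lay below Control without overlap at 10, 30 and 60 min, and the genotypes overlapped at 20 min. At least 3 such times were seen for 10.4% of tested identifiers.

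The overall log2 fold change of Il6st was −0.35 (SE 0.10, edgeR, Benjamini-Hochberg adjusted p = 0.0304), with 65.3 ± 16.2 CPM in CKO and 82.0 ± 13.3 CPM in Control (SD, n = 8 each). It was −0.29 without the 30 min libraries (SE 0.09, edgeR adjusted p = 0.0355). This call stood nearer to the threshold than that of Lifr. It passed in 12 of 16 fits that each left out 1 library, and edgeR adjusted p was 0.0533 without the first CKO 10 min library, 0.0519 without the first Control 10 min library, and 0.0686 and 0.0674 without the first and the second Control 30 min library. Scaled to spike-in RNA it was 0.09, with the sign turned (edgeR adjusted p = 0.811).

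Within single times, Il6st was lower in CKO at 10 min, with a log2 fold change of −0.52 (SE 0.14, edgeR adjusted p = 0.0119), and at 30 min, with −0.56 (SE 0.14, edgeR adjusted p = 0.0029). At these times 5.36% and 19.1% of identifiers were called lower. The log2 fold change of Il6st was −0.07 (SE 0.13, edgeR adjusted p = 1) at 20 min and −0.24 (SE 0.13, edgeR adjusted p = 0.645) at 60 min. The test of genotype by EU time gave an edgeR adjusted p of 0.151, 0.202 without the 30 min libraries, 0.0194 when only the first CKO 30 min library was left out and 0.0154 with spike-in scaling. At 10 min the call was lost without the first CKO 10 min library (log2 fold change −0.38, edgeR adjusted p = 0.13), without the first Control 10 min library (−0.45, edgeR adjusted p = 0.0972) and in the fit of that time alone (edgeR adjusted p = 0.0853). The 30 min value depended on scaling: with the size factors of DESeq2 it was −0.28 (edgeR adjusted p = 0.102), with library totals −0.25 (edgeR adjusted p = 0.129), and with at least 10 counts asked in every library −0.21 (edgeR adjusted p = 0.252). The call was also lost with DESeq2 (−0.28, adjusted p = 0.089), with spike-in scaling (−0.58, edgeR adjusted p = 0.0782) and without the second CKO 30 min library (−0.33, edgeR adjusted p = 0.0815).

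**Figure D2:**
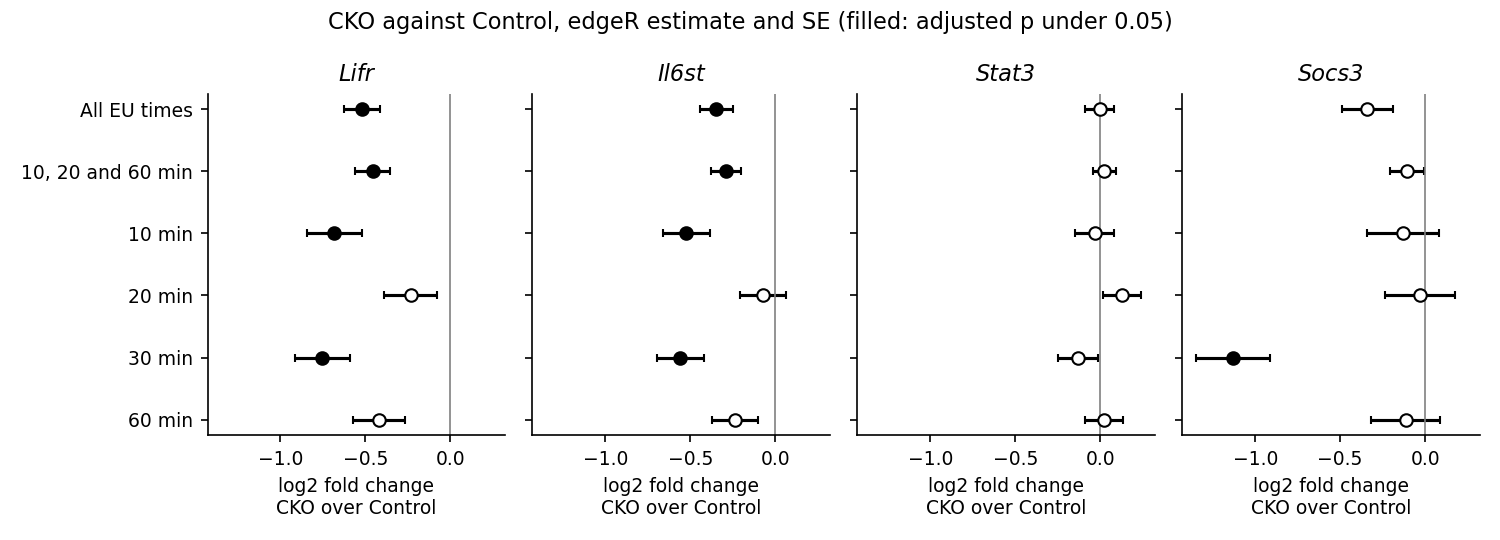
Log2 fold change of CKO over Control for each gene, over all EU times, without the 30 min libraries, and at each EU time, as edgeR estimates with 1 SE. Filled points passed an adjusted p of 0.05: Lifr and Il6st over all times, without the 30 min libraries, at 10 min and at 30 min, and Socs3 at 30 min.

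Stat3 encodes the transcription factor that carries the LIF signal to the nucleus. CKO libraries had 107 and 93.0 CPM at 10 min, 96.5 and 100.0 at 20 min, 72.0 and 86.1 at 30 min, and 87.7 and 89.7 at 60 min. Control libraries had 100.0 and 105 CPM at 10 min, 90.1 and 89.7 at 20 min, 90.3 and 82.9 at 30 min, and 89.2 and 85.7 at 60 min. The genotypes overlapped at 3 of the 4 times, and at 20 min both CKO libraries were the higher ones, as for 21.1% of tested identifiers. The overall log2 fold change was −0.0023 (SE 0.08, edgeR adjusted p = 0.99), and the estimate plus or minus 2 SE ran from −0.17 to 0.17. It was 0.024 with the 30 min libraries left out (SE 0.07, edgeR adjusted p = 0.864). With TMM scaling it lay at single times between −0.13 at 30 min and 0.13 at 20 min. The edgeR adjusted p was 0.358 or more at each time. The test of genotype by EU time gave an edgeR adjusted p of 0.655, 0.694 without the 30 min libraries and 0.00128 with spike-in scaling, when 38.4% of identifiers were called.

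Socs3 encodes the feedback inhibitor of the pathway. In CKO it had 40.2 and 69.6 CPM at 10 min, 89.1 and 86.4 at 20 min, 60.9 and 34.7 at 30 min, and 139.9 and 171 at 60 min. Control libraries had 58.3 and 62.0 CPM at 10 min, 86.7 and 92.1 at 20 min, 114 and 96.0 at 30 min, and 169 and 168 at 60 min. The genotypes overlapped at 10, 20 and 60 min and were apart at 30 min, where both CKO libraries lay below both Control libraries, as for 28.9% of tested identifiers at that time.

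For Socs3 the overall log2 fold change of −0.34 did not pass the threshold (SE 0.15, edgeR adjusted p = 0.138), although it did with no filter on low counts (−0.35, edgeR adjusted p = 0.0235). Without the 30 min libraries it was −0.11 (SE 0.10, edgeR adjusted p = 0.542). With TMM scaling, the values at 10, 20 and 60 min were −0.13 (SE 0.21), −0.03 (SE 0.21) and −0.11 (SE 0.20). Each had an edgeR adjusted p of 0.825 or more. At 30 min Socs3 was 2.19-fold lower in CKO, a log2 fold change of −1.13 (SE 0.22, edgeR adjusted p = 0.00054), at a time when 19.1% of identifiers were called lower. It was −1.54 without the first CKO 30 min library and −0.73 without the second, and −0.85 with the size factors of DESeq2, −0.83 with library totals and −0.78 with at least 10 counts in every library, each still past the threshold. Socs3 passed the test of genotype by EU time (edgeR adjusted p = 0.0294), but not without the 30 min libraries (edgeR adjusted p = 0.943). The test called 22.7% of identifiers, and 5.58% without those libraries. The 30 min comparison rests on the 2 CKO libraries that stood apart in depth and content, and the part of these features in it was not tested. The interaction call was also lost with DESeq2 (adjusted p = 0.137) and in edgeR with the size factors of DESeq2 (adjusted p = 0.175), with library totals (adjusted p = 0.183), with at least 10 counts in every library (adjusted p = 0.173), and without the first CKO 20 min library (adjusted p = 0.0507) or the first or the second Control 30 min library (adjusted p = 0.137 and 0.0558). It was kept with spike-in scaling (edgeR adjusted p = 0.00236), when 38.4% of identifiers were called.

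Set against Stat3 counts of the same library, which needs no scaling, both receptor genes had lower ratios in CKO at each of the 4 EU times. Lifr had 0.265 and 0.467 counts per Stat3 count in CKO at 10 min, 0.529 and 0.569 at 20 min, 0.6 and 0.582 at 30 min, and 0.668 and 0.717 at 60 min. The Control ratios were 0.625 and 0.508 at 10 min, 0.716 and 0.697 at 20 min, 0.874 and 0.944 at 30 min, and 0.972 and 0.907 at 60 min. The mean log2 difference over times was −0.53, and −0.49 without the 30 min libraries. Il6st per Stat3 count ranged from 0.397 to 0.994 in CKO and from 0.62 to 1.15 in Control, with CKO below Control without overlap at all 4 times and a mean log2 difference of −0.35. A ratio to Stat3 that was below Control without overlap at all 4 times was seen for 3.2% of tested identifiers. That share was not recorded for those with a mean of at least 10 CPM. These ratios were formed after the values had been seen and were not tested. They show unequal shares of the genes within a library and not which of the genes differed.

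**Figure D3:**
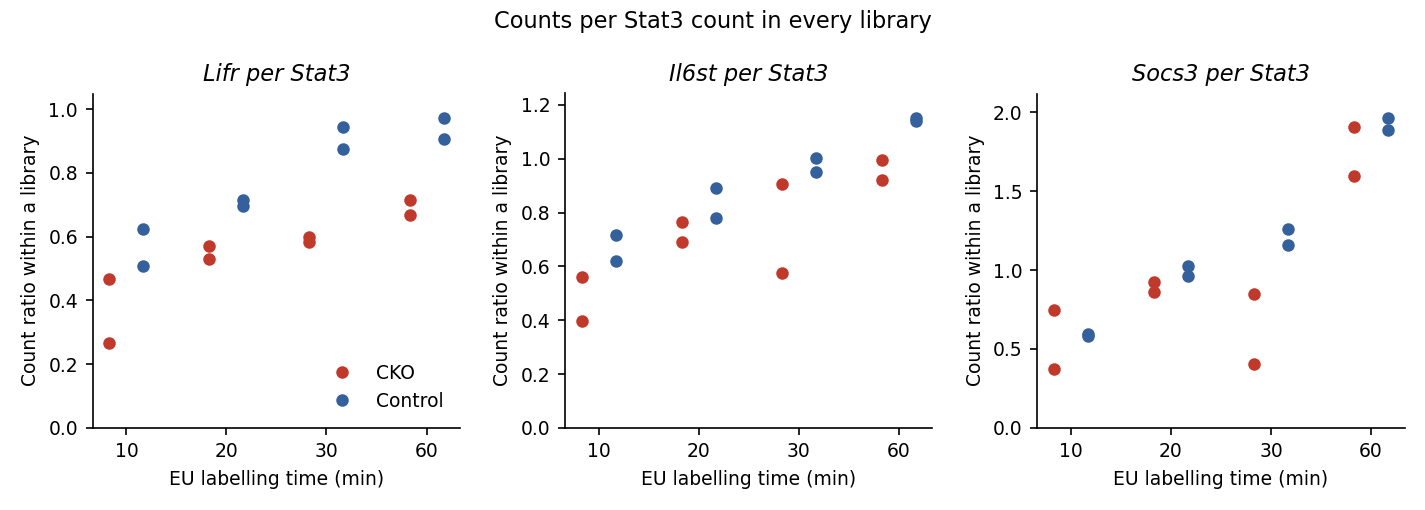
Counts of Lifr, Il6st and Socs3 per Stat3 count within each of the 16 libraries, by EU labelling time in min, with CKO left of Control. For Lifr and Il6st both CKO libraries lie below both Control libraries at each of the 4 times, and for Socs3 the genotypes overlap at 10 and 60 min.

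Labelling time changed the share of 3 of the 4 genes within each genotype. Between 10 and 60 min of EU, Lifr, Il6st and Socs3 rose in both CKO and Control cells, whereas Stat3 did not pass the test in either. Over all tested identifiers 8.96% rose in CKO and 6.88% in Control.

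Socs3 had the widest change with time of the 4. In CKO its mean share was 54.9 ± 20.8 CPM at 10 min, 87.7 ± 1.92 at 20 min, 47.8 ± 18.5 at 30 min and 156 ± 22.2 at 60 min (SD, n = 2 each). In Control it was 60.2 ± 2.6 CPM at 10 min, 89.4 ± 3.8 at 20 min, 105 ± 12.4 at 30 min and 168 ± 0.408 at 60 min (SD, n = 2 each). From 10 to 60 min it rose 2.83-fold in CKO, a log2 fold change of 1.5 (SE 0.21, edgeR adjusted p = 3.66e-05), and 2.80-fold in Control, a log2 fold change of 1.48 (SE 0.21, edgeR adjusted p = 6.47e-05). The Control libraries were in the order of EU time without overlap between neighbouring times. In CKO the libraries at 10, 20 and 60 min were also in that order without overlap, and the 30 min libraries overlapped those at 10 min.

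Il6st rose 1.79-fold in CKO from 10 to 60 min, a log2 fold change of 0.84 (SE 0.14, edgeR adjusted p = 5.56e-05), and 1.47-fold in Control, a log2 fold change of 0.55 (SE 0.13, edgeR adjusted p = 0.00645). The Control rise was lost without the second Control 10 min library (edgeR adjusted p = 0.0855) or the first Control 60 min library (edgeR adjusted p = 0.0939). Lifr rose 1.71-fold in CKO, a log2 fold change of 0.77 (SE 0.16, edgeR adjusted p = 0.000918), and 1.42-fold in Control, a log2 fold change of 0.51 (SE 0.16, edgeR adjusted p = 0.0353). The Control rise of Lifr was near the threshold and passed in 6 of 16 fits that each left out 1 library, with an edgeR adjusted p of up to 0.32. It was also lost with library totals (0.42, edgeR adjusted p = 0.0795) and with at least 10 counts in every library (0.39, edgeR adjusted p = 0.0752). Whether the rises of the receptor genes differed between genotypes was tested only in the test of genotype by EU time, where neither passed. For Lifr the Control libraries at 10 and 20 min nearly met at 62.5 CPM and those at 30 and 60 min overlapped, and in CKO the libraries at 30 min overlapped those at 10 min. The log2 change of Stat3 was −0.17 in CKO (SE 0.11, edgeR adjusted p = 0.371) and −0.23 in Control (SE 0.11, edgeR adjusted p = 0.253). DESeq2 called it lower at 60 min in both, by −0.23 in CKO (adjusted p = 0.0416) and −0.25 in Control (adjusted p = 0.0242). With at least 10 counts in every library, edgeR did so in Control (−0.34, adjusted p = 0.0238). DESeq2 called 1898 identifiers lower from 10 to 60 min in Control, against 882 in the main fit. For the other calls no such count is given here.

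Over the 8 group means of log2 CPM, Lifr and Il6st followed each other with a Pearson correlation of 0.96 (Spearman 0.90), and 0.97 over the 6 groups without the 30 min libraries. Il6st and Socs3 had 0.91, Lifr and Socs3 0.77, and Stat3 had −0.31 with Lifr, −0.26 with Il6st and −0.16 with Socs3. Over the 6 groups Il6st and Socs3 had 0.90 and Lifr and Socs3 0.79, whereas Stat3 had −0.70 with Lifr, −0.77 with Il6st and −0.89 with Socs3. These are descriptions over groups that share libraries, depth and EU times. Among 9472 identifiers with a mean of at least 10 CPM, 192 had a correlation above 0.9 with Lifr, 395 with Il6st, 65 with Stat3 and 630 with Socs3. The closest identifiers reached 0.985 for Lifr, 0.993 for Il6st, 0.982 for Stat3 and 0.995 for Socs3, and they are not named here because the gene table supplied paired none of the identifiers with a symbol.

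Against the ERCC spike-in RNA, which was added after capture, the 4 genes accumulated with labelling time in both genotypes. The scale here is gene counts per 1000 ERCC counts. It also moves with the number of cells, with recovery and with the yield of capture. All 4 genes started higher in CKO: at 10 min Lifr had 1.1 ± 0.438 in CKO and 0.694 ± 0.0546 in Control, Il6st 1.44 ± 0.363 in CKO and 0.819 ± 0.0269 in Control, Stat3 3.00 ± 0.0285 in CKO and 1.23 ± 0.0841 in Control, and Socs3 1.69 ± 0.807 in CKO and 0.724 ± 0.0572 in Control (SD, n = 2 each). The log2 differences at 10 min were 0.61 for Lifr, 0.79 for Il6st, 1.29 for Stat3 and 1.13 for Socs3, and none of the 4 overlapped between genotypes. The same held for 96.4% of the 9483 identifiers whose mean reached 10 CPM, so it is no result about these 4 genes. At 30 min the log2 differences were −0.87 for Lifr, −0.68 for Il6st, −0.25 for Stat3 and −1.29 for Socs3. At 60 min Lifr had 8.0 ± 1.5 in CKO and 10.3 ± 0.919 in Control, a log2 difference of −0.38, and the other genes overlapped between genotypes, with log2 differences of −0.20 for Il6st, 0.06 for Stat3 and −0.08 for Socs3. The share of identifiers without overlap at 60 min was not recorded on this scale, so that of Lifr stands without a background.

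**Figure D4:**
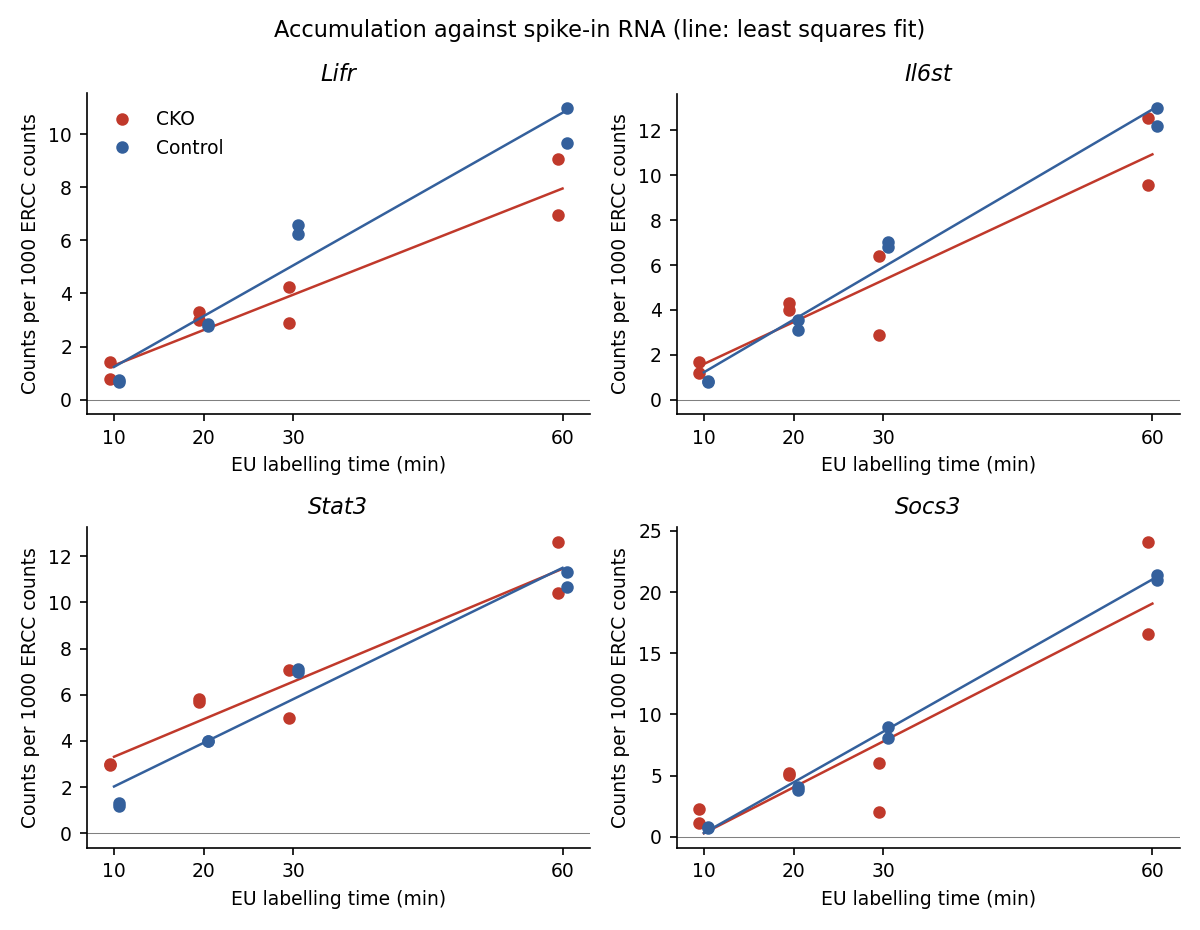
Counts of each gene per 1000 ERCC counts against EU labelling time in min, for all 16 libraries, with least squares lines for CKO and Control. At 10 min all CKO points lie above those of Control, and at 60 min the CKO points of Lifr lie below those of Control while the points of the other genes overlap. The share of identifiers without overlap at 60 min was not recorded.

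Averaged over the 4 times, the spike-in scaled log2 difference of CKO minus Control was −0.12 for Lifr, 0.06 for Il6st, 0.41 for Stat3 and 0.03 for Socs3, against a median of 0.29 over those 9483 identifiers. None of the 4 passed an exact two-sided permutation test of genotype within EU time, with adjusted p (Benjamini-Hochberg over the 9483) of 0.755 for Lifr, 0.905 for Il6st, 0.308 for Stat3 and 0.958 for Socs3. The smallest p the test allowed was 0.00154. It called 0 of the 9483 identifiers after adjustment and 1881 (19.8%) at an unadjusted p under 0.05. Without the 30 min libraries the differences were 0.13, 0.31, 0.63 and 0.48 in the same order of genes, with exact permutation adjusted p of 0.604, 0.161, 0.0572 and 0.0995 and a smallest possible p of 0.00926, where 29.4% of identifiers were called.

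The rate of accumulation was the quantity that the labelling series was made to compare. Lifr gained 0.133 ± 0.016 counts per 1000 ERCC counts per min in CKO and 0.191 ± 0.0186 in Control (SE of the slope, n = 8 each), a CKO rate 0.696 of that of Control. The log2 ratio of −0.52 had an exact two-sided permutation p of 0.00926, the smallest that this test can give, since the 30 min libraries have no weight in a slope when the mean EU time is 30 min. After Benjamini-Hochberg adjustment over 9483 identifiers that smallest p became 0.0798, a value that depends on how many identifiers reached it. No identifier passed here. Lifr could not have had a lower p, so its miss does not show an equal rate. Whether that p passed after adjustment depended on how many of the 9483 identifiers shared it, and that count was not recorded. The level test without the 30 min libraries had the same smallest p and called 29.4% of identifiers. Il6st gained 0.187 ± 0.0278 per min in CKO and 0.234 ± 0.0136 in Control, a log2 ratio of −0.33 (exact permutation p = 0.0741, adjusted 0.298). Stat3 gained 0.163 ± 0.0201 in CKO and 0.189 ± 0.0174 in Control, a log2 ratio of −0.22 (exact permutation p = 0.389, adjusted 0.73). Socs3 gained 0.376 ± 0.067 in CKO and 0.415 ± 0.00907 in Control, a log2 ratio of −0.14 (exact permutation p = 0.676, adjusted 0.923). The test has little power for a change by the same fold at every EU time, so a large p here does not show equal rates. The median log2 ratio over all 9483 identifiers was −0.20. After adjustment 0 of them (0.0%) were called, and 1914 (20.2%) had an unadjusted p under 0.05. With each library left out in turn, the log2 ratio of Lifr lay between −0.78 and −0.33. These rates are the same without the 30 min libraries.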

How the data were processed

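The authors deposited 1 file of raw counts per library, with 54446 mouse identifiers and 92 ERCC species. Per the submitters' processing notes, the tools were HTSeq, HISAT2 2.1.0, Trimmomatic 0.38 and CASAVA, and the build was mm10. Libraries were made with a SMARTer Stranded Total RNA-Seq kit, per the labels' protocols. Annotation release, strand setting and counted feature are not stated in the labels, so reads of overlapping or antisense genes may be included. Per the labels' protocols, 0.01 µl of ERCC RNA entered each sample before library construction.

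Counts were tested with edgeR 4.0.16 (R 4.3.3, robust quasi-likelihood F-test, TMM scaling, filter on low counts by group) in all 16 libraries, with Benjamini-Hochberg adjustment over 27488 identifiers and a threshold of 0.05. The overall effect came from EU time plus genotype, the other effects from 8 group means. SE came from the F statistic. For spike-in values, genotype labels were exchanged within each EU time in an exact permutation test with 1296 assignments. Both tests were run on simulated data with known changes. There the edgeR test over all EU times missed most changes about as large as that of Lifr. False calls were a larger part of its calls than the threshold of 0.05. The spread of the simulated counts was estimated without genotype, so it included differences between CKO and Control. It was thus not the spread of the fit to the real counts, and the misses may not carry over to it. Alternatives changed the scaling, the filter, the tool (DESeq2 1.42.0), the libraries and the replicate block. Replicate numbers did not pair libraries (correlation of deviations from group means −0.00524 to 0.0253 between genotypes).

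The 4 genes, the lists and the tests were chosen with earlier results of these data known. All 4 genes were to be named, and the 2 identifiers closest to each by correlation over groups. Lists of other pathway genes and of cell type markers were set by symbol, but the gene table matched 0 identifiers, so these lists, Mettl14 itself and the check of the cell type were not analysed here. Gene names follow the identifiers given for the 4 genes. Promoter sequences are from RefSeq (GRCm38.p6).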

Additional observations from a re-analysis of the deposited data

Results flagged for a closer look

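The difference between CKO and Control in Socs3 changed across EU times (edgeR F-test with 3 degrees of freedom, Benjamini-Hochberg adjusted p = 0.0294). The same test called 22.7% of all tested identifiers. The log2 fold change was −1.13 at 30 min and between −0.13 and −0.03 at the other times. Without the 30 min libraries the edgeR adjusted p was 0.943. The call was also lost with DESeq2 and, in edgeR, with its size factors, with library totals and with at least 10 counts in every library.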

How the results depend on the processing

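Lifr kept its direction and its call over all EU times under every alternative run except scaling to spike-in RNA. Under that scaling the overall log2 fold changes were −0.10 for Lifr, 0.094 for Il6st, 0.41 for Stat3 and 0.12 for Socs3. At 10 min they were 0.66, 0.81, 1.28 and 1.22 in the same order, at 20 min 0.17 for Lifr, 0.33 for Il6st and 0.37 for Socs3, and from 10 to 60 min Stat3 changed by 1.94 in CKO and 3.16 in Control. Its edgeR adjusted p for genotype by EU time was 0.0050 for Lifr, 0.0154 for Il6st, 0.00128 for Stat3 and 0.00236 for Socs3, when 38.4% of identifiers were called. It called 11962 identifiers at 10 min, 146 at 20 min, 12 at 60 min, 10546 for genotype by EU time, and 14556 in CKO and 18274 in Control from 10 to 60 min, against 3246, 264, 723, 6238, 4176 and 2774 with TMM.

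The overall value of Stat3, near 0, took the other sign with the size factors of DESeq2 in edgeR (0.052), library totals (0.042), at least 10 counts in every library (0.069), DESeq2 (0.050) and without the 30 min libraries (0.024). At 30 min it was 0.15, 0.18, 0.22 and 0.15 under the first 4 of these, and at 60 min −0.020 with the size factors, −0.031 with library totals, −0.027 with no filter and −0.020 with DESeq2. Socs3 was called over all EU times with no filter (−0.35, edgeR adjusted p = 0.0235). Its edgeR adjusted p for genotype by EU time was 0.175 with the size factors of DESeq2, 0.183 with library totals, 0.173 with at least 10 counts in every library and 0.943 without the 30 min libraries, and DESeq2 gave 0.137. The cause of these shifts was not tested.

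DESeq2 called 5020 identifiers at 10 min, 880 at 20 min, 1972 at 60 min and 4425 from 10 to 60 min in Control. The 4 libraries of a comparison alone gave 1680 at 10 min, 2353 at 20 min and 1744 at 60 min. With at least 10 counts in every library, 5059 were called at 30 min and 3722 for genotype by EU time, where 1127 were called without the 30 min libraries, in both settings among fewer identifiers tested.

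Leaving out each library in turn gave 1428 to 2956 identifiers called over all EU times, 2263 to 5256 at 10 min, 77 to 681 at 20 min, 6450 to 14292 at 30 min, 144 to 1714 at 60 min, 3972 to 8411 for genotype by EU time, 2848 to 5906 from 10 to 60 min in CKO and 1389 to 4558 in Control. The overall log2 fold change then ranged from −0.56 to −0.46 for Lifr, from −0.39 to −0.30 for Il6st, from −0.019 to 0.027 for Stat3 and from −0.44 to −0.21 for Socs3. Adjusted p of genotype by EU time in edgeR ranged from 0.0213 to 0.476 for Lifr, from 0.0194 to 0.368 for Il6st, from 0.439 to 0.898 for Stat3 and from 5.05e-13 to 0.137 for Socs3. The range at 10 min was −0.14 to 0.067 for Stat3 and −0.58 to 0.21 for Socs3, at 20 min −0.16 to 0.020 for Il6st and −0.070 to 0.016 for Socs3, at 30 min −0.22 to 0.045 for Stat3 and −1.54 to −0.73 for Socs3, and at 60 min −0.021 to 0.050 for Stat3 and −0.27 to 0.024 for Socs3. Spike-in scaled levels ranged from −0.22 to −0.014 for Lifr, from −0.086 to 0.20 for Il6st, from 0.34 to 0.47 for Stat3 and from −0.16 to 0.23 for Socs3. Log2 ratios of rates ranged from −0.78 to −0.33 for Lifr, from −0.59 to −0.14 for Il6st, from −0.44 to −0.046 for Stat3 and from −0.58 to 0.030 for Socs3.

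Without the 30 min libraries the spike-in scaled level of Lifr was 0.13. In CPM, the same exact permutation test gave −0.49 for Lifr (adjusted p = 0.0121), −0.31 for Il6st (adjusted p = 0.0189) and −0.34 for Socs3 (adjusted p = 0.126). Stat3 was again not called. The share of all identifiers called by the test in CPM was not recorded, so these calls stand without a background. The ratio of slopes in CPM gave no value for Stat3, since its slopes were not positive in both genotypes.

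With the replicate number as a replicate block, 403 identifiers were called at 20 min, against 264 without it, and no call of the 4 genes changed. The numbers did not pair the samples: over 28 pairs of groups the correlation of deviations ranged from −0.0629 to 0.0388.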

Other observations

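The 2 CKO 10 min libraries differed from each other more in Lifr and Socs3 than in Stat3. The first had 28.4 CPM of Lifr and 40.2 of Socs3 where the second had 43.5 and 69.6, while Stat3 ran the other way, with 107 and 93.0 CPM. With the first left out, the 10 min log2 fold change was −0.41 for Lifr and 0.21 for Socs3. With the second left out, it was −1.02 for Lifr and −0.58 for Socs3.

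Counts of Lifr per Il6st count were lower in CKO on average at each EU time, with log2 differences of −0.18 at 10 min, −0.16 at 20 min, −0.18 at 30 min and −0.18 at 60 min. The libraries of the genotypes overlapped at 3 of these 4 times. This ratio was formed after the values had been seen and was not tested.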
